A study of Mus musculus with 52 samples.

Results

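The libraries described here hold ribosome-bound RNA from the endothelial cells (ECs) of the cerebral cortex of beta-catenin stabilized and wild type (WT) mice. They were chosen as all RiboTag libraries of cortex from the bound fraction, which are 4 of the 52 samples of the series, 2 from each genotype, and the 4 input libraries of the same cortices were used beside them. In RiboTag mice, Cre recombination puts an epitope tag on the ribosomal protein RPL22. Here Pdgfb-CreER, which drives recombination in ECs after 4-hydroxytamoxifen (4HT), was used, and tagged polyribosomes were pulled down with antibodies against the HA tag. Both genotypes carried the tagged allele and the Cre driver and received 4HT by intraperitoneal injection several weeks before dissection. The WT group was RiboTag; Pdgfb-CreER and the stabilized group was RiboTag; Pdgfb-CreER; BcatEx3fl, with exon 3 of 1 Ctnnb1 allele flanked by loxP sites. The mice were 6 to 8 weeks old by the study's methods and adult males by the labels. An input library is RNA from an aliquot of the cortex homogenate before the pulldown. By the study's methods the 2 replicates of a group are biological ones, and how many cortices went into each is not given in the sources used here. In bulk libraries, fewer cells of a type and less RNA per cell cannot be told apart.

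Canonical Wnt signaling acts by preventing the phosphorylation and destruction of beta-catenin, which then enters the nucleus and activates transcription with the TCF/LEF factors. In CNS ECs the ligands WNT7A, WNT7B and Norrin act through Frizzled receptors, LRP5 and LRP6, and the co-activators RECK, GPR124 (gene Adgra2) and TSPAN12, and this signal is required to form and keep the blood-brain barrier (BBB). Cortical ECs form a BBB with the signal already active, so the comparison asks what further stabilization of beta-catenin does where the BBB state is already present.

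The sequence that the stabilized mice lose in recombined cells is exon 3 of Ctnnb1. In transcript ENSMUST00000007130.14 the exon lies on the forward strand at chr9:120950522-120950749 of GRCm38 and is 228 bases of coding sequence, a whole number of codons. The capitals mark codons 33, 37, 41 and 45, the serine and threonine codons whose phosphorylation targets beta-catenin for destruction.
Ctnnb1 exon 3: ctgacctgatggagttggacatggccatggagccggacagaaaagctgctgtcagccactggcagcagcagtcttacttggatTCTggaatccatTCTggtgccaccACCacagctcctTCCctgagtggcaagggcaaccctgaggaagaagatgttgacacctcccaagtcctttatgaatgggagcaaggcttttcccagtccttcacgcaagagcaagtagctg

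The deposited values are per transcript and give no value for exon 3 alone, so the deletion itself was not measured. The level of the whole Ctnnb1 gene in bound RNA was 947 and 734 CPM in the WT libraries and 661 and 577 CPM in the stabilized libraries, where CPM is a gene's counts relative to the library's protein-coding counts, set to a common total with TMM scaling (a scaling that centers most genes on no change). The stabilized values were the lower ones, and the log2 difference of -0.44 ± 0.20 (standard error, SE) did not pass the test (edgeR, adjusted p = 0.14). The inputs differed in the same direction, with Ctnnb1 at 434 and 429 CPM in WT and 284 and 271 CPM in stabilized cortex. Rpl22, the gene of the tagged protein, was at 90.9 and 64.1 CPM in WT and at 68.3 and 69.4 CPM in stabilized bound RNA, so its values overlapped. Its inputs were at 49.3 and 52.1 CPM in WT and at 79.6 and 79.6 CPM in stabilized cortex.

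The 8 cortex libraries held 7061937 to 21399125 estimated counts, of which 5743850 to 17058552 fell on nuclear protein-coding genes. The WT and stabilized cortex libraries differed in makeup in both fractions. Non-coding RNA took 23.7 to 33.2% of TPM (transcript abundance corrected for length and set to a common total) in the 4 WT libraries and 69.4 to 72.9% in the 4 stabilized ones, while all 8 choroid plexus libraries, of both genotypes, lay between 71.8 and 76.0%. Mitochondrial RNA took 23.2 to 39.4% of TPM in WT and 2.28 to 16.4% in stabilized cortex. The small RNA gene Gm23935 was at 1229 to 4092 TPM in WT and 310137 to 522281 TPM in stabilized cortex, and the pseudogene Gm10222 at 38234 to 63117 TPM in WT and 0 in stabilized cortex. The Y-linked gene Ddx3y had 1255 to 1562 estimated counts in the WT cortex libraries and 0 in the stabilized ones, whereas Xist, the RNA that silences the X chromosome in females, had 0 in WT and 108 to 1426 in stabilized cortex. These counts go against the male label of the stabilized cortex samples. In cortex, the effects of genotype, of sex and of the makeup of the libraries therefore cannot be told apart, and all comparisons below were made on nuclear protein-coding genes scaled among themselves, with the input beside them. The 17 kidney genes read as a check summed to 911 and 111 CPM in the WT bound libraries and to 19.9 and 16.7 CPM in the stabilized bound ones, against 13.5 to 27.5 CPM in the inputs. This list was chosen after the values were seen.

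The pulldown was checked against cell type markers. The 20 general EC genes summed to 6640 and 3059 CPM in WT bound RNA and to 9454 and 9622 CPM in stabilized bound RNA. Their input sums were 188 and 156 CPM in WT and 300 and 298 CPM in stabilized cortex. The 10 microglia markers were also far higher in bound than in input RNA, at 6017 to 8556 CPM against 225 to 272 CPM, in both genotypes. The bound fraction was thus rich in microglial as well as EC transcripts. The 1635 genes called higher in bound than in input at 10 or more coding TPM are named bound-enriched genes here, not EC genes. That minimum had to be met in both bound replicates of at least 1 genotype. Neuronal, astrocyte and oligodendrocyte markers were lower in stabilized than in WT bound RNA, with neuronal sums of 3868 and 4893 against 6201 and 9400 CPM. The 12 mural cell markers summed to 123 and 267 CPM in WT and 114 and 156 CPM in stabilized bound RNA, with Higd1b, Kcnj8 and Ndufa4l2 at 0 in at least 1 bound library. The 10 leukocyte markers summed to 91.7 and 105 CPM in WT and 96.9 and 143 CPM in stabilized bound RNA, with Cd3e, Cd79a, Pf4, S100a8 and S100a9 at 0 in at least 1. The part that these differences in cell makeup play in the results below was not tested.

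**Figure D1:**
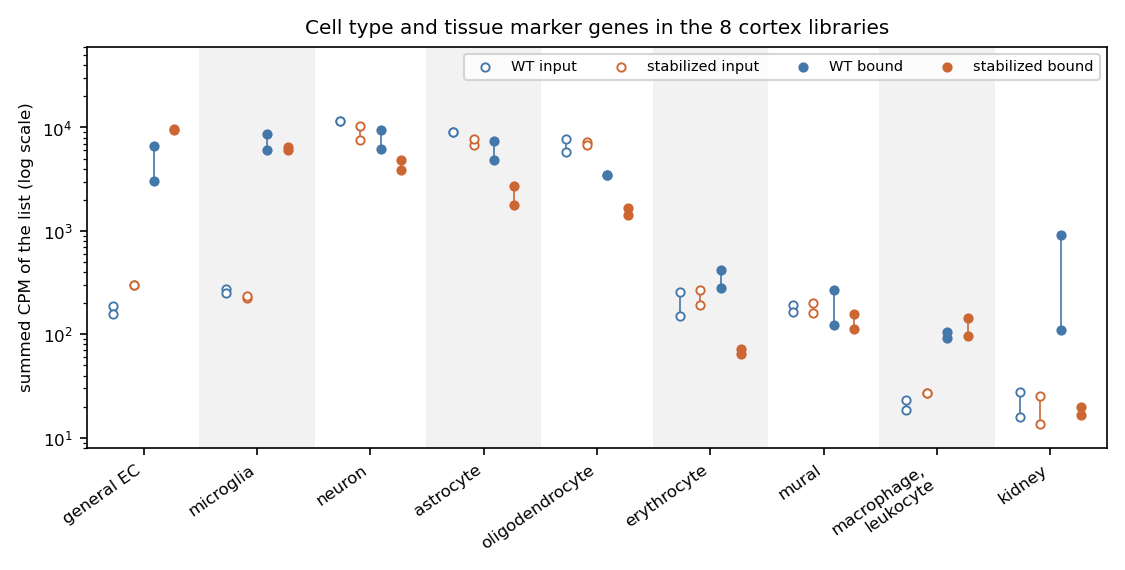
Summed level of the marker genes of 9 cell type lists in each cortex library, in CPM on a log axis; open points are input and filled points bound libraries, blue WT and orange stabilized. General EC and microglia genes stand far above input in every bound library, the WT bound replicates lie further apart for EC genes (6640 and 3059 CPM) than the stabilized ones (9454 and 9622 CPM), and the neuronal, astrocyte and oligodendrocyte sums are lowest in stabilized bound RNA.

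The canonical Wnt target genes Axin2, Nkd1, Apcdd1, Tcf7 and Lef1 were higher in stabilized cortex bound RNA. Of 14572 genes tested, 833 (5.72%) were higher and 1523 (10.5%) lower in stabilized bound RNA at an adjusted p below 0.05 and at least a 2-fold change, and of 26 Wnt target and feedback genes 5 were higher and 2 lower, with a median log2 difference of 0.21 against -0.10 over all genes. The largest differences were in genes that restrain the pathway. Axin2, a scaffold of the beta-catenin destruction complex and a general readout of the pathway, was at 32.1 and 26.0 CPM in WT and at 178 and 175 CPM in stabilized bound RNA. The stabilized values exceeded both WT values, with a log2 difference of 2.60 ± 0.27 (SE; adjusted p = 0.000924). In the inputs Axin2 was at 15.5 and 26.2 CPM in WT and 26.5 and 31.1 CPM in stabilized cortex, both above both WT values, and its bound difference exceeded its input difference by 2.14 ± 0.37 (unadjusted p = 0.000288, adjusted p = 0.0747). Nkd1, an inhibitor that binds Dishevelled, was at 80.8 and 48.0 CPM in WT and 423 and 280 CPM in stabilized bound RNA, a log2 difference of 2.45 ± 0.31 (adjusted p = 0.00153). Apcdd1, a membrane inhibitor of Wnt signaling that is expressed by barrier ECs, was at 262 and 110 CPM in WT and at 717 and 693 CPM in stabilized bound RNA, with a log2 difference of 1.92 ± 0.36 (adjusted p = 0.00675). These 3 genes stayed past the threshold when any 1 of the 8 libraries was left out and under a scaling on the 20 general EC genes, where their differences were 1.66, 1.59 and 1.15. With each gene's effective length as an offset they were called at 2.44, 1.35 and 1.41.

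The TCF/LEF family genes Tcf7 and Lef1 were called higher, while Tcf7l1 and Tcf7l2 were not called. Tcf7, which encodes the transcription factor TCF1, was at 27.3 and 9.29 CPM in WT and 76.8 and 57.0 CPM in stabilized bound RNA (log2 1.87 ± 0.46, adjusted p = 0.0201). Lef1, its paralog and a marker of Wnt-active CNS ECs, was at 122 and 57.0 CPM in WT and 228 and 214 CPM in stabilized bound RNA (log2 1.31 ± 0.32, adjusted p = 0.0198). In both, the stabilized values were above the WT values, but the calls depended on single libraries. Without stabilized bound replicate 1, Tcf7 was at 1.63 (adjusted p = 0.11) and Lef1 at 1.25 (adjusted p = 0.09). Without stabilized bound replicate 2, Lef1 was at 1.35 (adjusted p = 0.064), and without WT bound replicate 2 it was at 0.85, less than 2-fold. Scaled on the general EC genes, neither was called (Lef1 0.50, Tcf7 1.14), and with the length offset Tcf7 was at 0.82 (adjusted p = 0.326). Per transcript length, stabilized bound RNA held Lef1 at 228 and 273 coding TPM and Axin2 at 124 and 121 coding TPM, where coding TPM is TPM rescaled to nuclear protein-coding genes. Notum, a secreted enzyme that inactivates Wnt ligands, was at 15.4 and 9.77 CPM in WT and 40.4 and 24.3 CPM in stabilized bound RNA, values that do not overlap, and it missed the threshold (log2 1.36 ± 0.49, adjusted p = 0.076).

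The 2 members of the list that fell were Ccnd1 and Gpr37l1. Ccnd1, which encodes cyclin D1, was at 210 and 151 CPM in WT and at 101 and 77.3 CPM in stabilized bound RNA, a log2 difference of -1.02 ± 0.22 (adjusted p = 0.0124). Its call was lost without WT bound replicate 1 (log2 -0.77) or stabilized bound replicate 2 (log2 -0.85, adjusted p = 0.071), and with the length offset (log2 -0.52, adjusted p = 0.204). Gpr37l1, a receptor gene of astrocytes that is not bound-enriched, was at 48.6 and 69.3 CPM in WT and 14.5 and 16.8 CPM in stabilized bound RNA, with 86.5 to 105 CPM in the inputs, and its log2 difference was -1.91 ± 0.24 (adjusted p = 0.00153). Astrocyte markers as a list were lower in the same libraries, with sums of 4805 and 7452 CPM in WT and 1775 and 2715 CPM in stabilized bound RNA.

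Besides Notum, the remaining 18 of the 26 members were not called. Under the length offset 6 of the 26 were higher and 1 lower, and scaled on general EC genes 3 were higher and 7 lower. Among those with the larger counts, Tnfrsf19, a TNF receptor family member, was at 137 and 104 CPM in WT and 153 and 123 CPM in stabilized bound RNA, and Prickle1, of the planar polarity pathway, was at 71.0 and 78.2 against 79.1 and 124 CPM. Znrf3, a ubiquitin ligase that removes Frizzled receptors, was at 22.1 and 22.2 against 34.2 and 29.2 CPM. Kremen1, a co-receptor of Dickkopf inhibitors, was at 14.1 and 17.2 against 17.3 and 19.8 CPM. Sfrp1, a secreted Wnt-binding protein, was at 14.4 and 10.9 against 8.93 and 8.67 CPM, and Bambi, a decoy receptor of BMP signaling, at 14.0 and 7.78 against 2.79 and 3.68 CPM. Nkd2 overlapped between genotypes at 11.7 and 5.09 against 11.3 and 23.3 CPM. The remaining 11 members (Dkk2, Myc, Dact1, Sp5, Cd44, Dact2, Rnf43, Wif1, Fzd10, Lgr5 and Tnfrsf11b) were at most at 11.4 CPM in any bound library, and no direction was read from them.

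**Figure D2:**
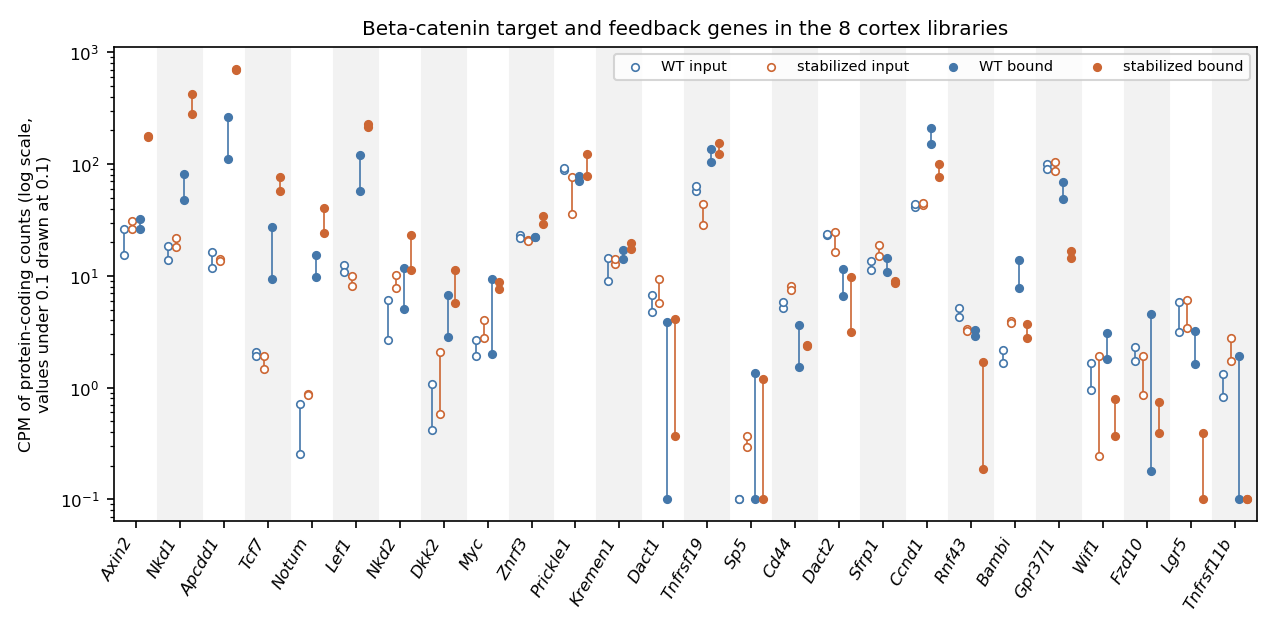
Level of 26 Wnt target and feedback genes in each cortex library, in CPM on a log axis with values under 0.1 drawn at 0.1; open points are input and filled points bound libraries, blue WT and orange stabilized. For Axin2, Nkd1, Apcdd1, Tcf7, Lef1 and Notum both stabilized bound points lie above both WT bound points while the inputs lie closer together, as for Axin2 at 178 and 175 against 32.1 and 26.0 CPM in bound RNA.

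The promoter windows of Axin2 and Lef1 are shown because both genes are targets of the TCF/LEF factors. They are the 250 bases before the start of RefSeq entries of GRCm38.p6, all on the forward strand, and capitals mark the core TCF/LEF motif CTTTGA, which reads TCAAAG on the other strand. Lef1 has 4 entries, of which the windows of the 2 most upstream overlap an exon, held no motif and are not printed. The window at chr11:108920099-108920348 for Axin2 and the one at chr3:131112541-131112790 for the third Lef1 entry held none. The window of the fourth Lef1 entry at chr3:131156044-131156293, like that of the third inside the gene and outside its exons, held it 180 and 120 bases before the start.
Axin2: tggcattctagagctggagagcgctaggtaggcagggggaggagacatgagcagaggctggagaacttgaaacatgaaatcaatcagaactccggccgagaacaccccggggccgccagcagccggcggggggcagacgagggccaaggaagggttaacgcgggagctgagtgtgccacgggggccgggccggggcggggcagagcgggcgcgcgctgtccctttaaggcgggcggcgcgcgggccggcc
Lef1, entry 3: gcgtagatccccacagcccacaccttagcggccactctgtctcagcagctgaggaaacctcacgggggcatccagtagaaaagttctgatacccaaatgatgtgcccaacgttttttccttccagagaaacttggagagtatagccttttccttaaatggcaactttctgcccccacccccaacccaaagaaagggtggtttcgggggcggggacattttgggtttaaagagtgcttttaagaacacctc
Lef1, entry 4: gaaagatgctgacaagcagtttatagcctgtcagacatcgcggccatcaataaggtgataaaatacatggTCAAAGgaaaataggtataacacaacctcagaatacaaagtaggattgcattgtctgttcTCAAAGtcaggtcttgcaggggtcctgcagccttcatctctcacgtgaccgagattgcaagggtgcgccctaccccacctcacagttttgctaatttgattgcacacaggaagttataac

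The motif, on either strand and counting any entry of a gene, was in the windows of 3 of the 16 Wnt target and feedback genes with an entry (18.8%) and in 15.8% of all 27025 genes with an entry. It was in 34 of the 242 bound-enriched genes called higher (14%) and in 15.2% of all bound-enriched genes with an entry. A match describes these letters in this window and says nothing of binding.

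Among Wnt receptors and the beta-catenin machinery, Lrp5 and Tle1 were called higher and Tspan12, Wnt7b and Gsk3a lower, shares near the 5.72% higher and 10.5% lower over all genes. Of 15 receptors, co-receptors and ligands 1 was higher and 2 were lower, and of 17 intracellular components 1 was higher and 1 lower. Lrp5, the Wnt co-receptor, was at 76.6 and 59.5 CPM in WT and 176 and 186 CPM in stabilized bound RNA, a log2 difference of 1.41 ± 0.30 (adjusted p = 0.012). Its paralog Lrp6 was at 198 and 166 CPM against 191 and 229 CPM (log2 0.21 ± 0.19, adjusted p = 0.479). Fzd4, the receptor of Norrin, overlapped at 304 and 152 against 284 and 242 CPM, as did Fzd6 at 112 and 95.2 against 100 and 109 CPM and Adgra2 at 120 and 41.3 against 98.8 and 109 CPM. Reck was at 46.3 and 29.7 CPM in WT and 63.2 and 53.0 CPM in stabilized bound RNA and missed the threshold (log2 0.61 ± 0.29). The log2 differences of the other receptors and ligands not called, Fzd7, Fzd8, Fzd1, Lgr4, Wnt7a and Rspo3, ranged from -1.23 to 0.54, and Ndp, the gene of Norrin, was under 1 CPM in every bound library. Tspan12, a Norrin co-activator, fell from 48.7 and 27.1 to 14.0 and 19.3 CPM (log2 -1.18 ± 0.36, adjusted p = 0.047). Wnt7b, a ligand made by neurons and glia and not bound-enriched, fell from 12.6 and 16 to 2.05 and 6.57 CPM (log2 -1.70 ± 0.50, adjusted p = 0.0386). Lrp5 was not called without either stabilized bound library (adjusted p = 0.053 and 0.052). Tspan12 was called only without WT bound replicate 2, and Wnt7b only without WT bound replicate 1 or stabilized bound replicate 2, among the 8 fits that leave out 1 library (largest adjusted p 0.2 and 0.1). Lrp5 and Tspan12 were not called with the length offset (adjusted p = 0.0838 and 0.234), and scaled on general EC genes 0 of the 15 were higher and 4 lower.

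Among the intracellular components, Tle1, a co-repressor that binds TCF factors, rose from 40.7 and 33 to 69.2 and 81.6 CPM (log2 1.04 ± 0.24, adjusted p = 0.0151). Gsk3a, a kinase of the destruction complex, fell from 93.1 and 128 to 36.3 and 61.1 CPM (log2 -1.18 ± 0.27, adjusted p = 0.0162), while Gsk3b was at 256 and 309 against 251 and 269 CPM. Apc, the large scaffold of the complex, was at 760 and 1192 against 870 and 1011 CPM, Axin1 at 50.7 and 25.4 against 44.1 and 46.4 CPM, and Csnk1a1, the priming kinase, at 297 and 266 against 235 and 219 CPM. The TCF gene Tcf7l2 was at 28.9 and 54.4 against 35.3 and 37.1 CPM and Tcf7l1 at 4.68 and 6.61 against 12.1 and 11.6 CPM. Bcl9 and Ctnnbip1 passed the adjusted p with less than a 2-fold change (log2 -0.76 ± 0.18 and -0.83 ± 0.25, adjusted p = 0.0185 and 0.0398). Dvl1, Dvl2, Bcl9l, Pygo2, Btrc and Cdh5 did not pass (log2 -0.52 to 1.23). The call of Tle1 was lost without WT bound replicate 2 (log2 0.88) or stabilized bound replicate 2 (0.90), and that of Gsk3a without WT bound replicate 2 (-0.93) or stabilized bound replicate 1 (-0.86). Tle1 was not called with the length offset (adjusted p = 0.0591), where 1 of the 17 was higher and 3 lower, and scaled on general EC genes 0 were higher and 5 lower.

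BBB transporters including Slc19a3, Slc7a5, Mfsd2a and Abcb1a were higher in stabilized cortex bound RNA, and none was called lower. Of 25 BBB transporters 8 were higher, with a median log2 difference of 0.56 in bound and -0.22 in input RNA. The sharpest was Slc19a3, a thiamine transporter, at 34.5 and 19.1 CPM in WT and 107 and 152 CPM in stabilized bound RNA (log2 2.27 ± 0.32, adjusted p = 0.00216). Slc7a5, the large neutral amino acid transporter LAT1, was at 302 and 152 CPM in WT and 721 and 809 CPM in stabilized bound RNA (log2 1.75 ± 0.31, adjusted p = 0.00576). Its partner Slc3a2 was at 434 and 241 against 405 and 398 CPM, which overlap. Mfsd2a, which carries omega-3 lipids and restrains transcytosis, was at 135 and 55.9 against 284 and 245 CPM (log2 1.47 ± 0.37, adjusted p = 0.0236), and Abcb1a, the P-glycoprotein efflux pump, at 863 and 422 against 1598 and 1516 CPM (log2 1.28 ± 0.35, adjusted p = 0.0313). Lrp8, a lipoprotein receptor, Abcc4, an efflux pump, Tfrc, the transferrin receptor, and Slc38a3, a glutamine transporter, rose by log2 1.24, 1.24, 1.12 and 1.06. Slc2a1, the glucose transporter GLUT1, was the most abundant by CPM at 2449 and 846 in WT and 3412 and 3684 in stabilized bound RNA, and it missed the threshold (log2 1.11 ± 0.42, adjusted p = 0.0893). Slco1a4, an organic anion transporter, was at 845 and 433 against 990 and 850 CPM, and Slc6a6, the taurine transporter, at 920 and 618 against 963 and 836 CPM.

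The 2 WT bound replicates differed for these genes, with replicate 1 above replicate 2 in all 8 called. The calls of Slc19a3, Slc7a5 and Lrp8 held whichever library was left out. Without WT bound replicate 2, Mfsd2a, Abcb1a, Abcc4, Tfrc and Slc38a3 were at log2 differences of 0.96, 0.85, 0.78, 0.93 and 0.59 and were not called. Without stabilized bound replicate 1, Mfsd2a, Abcb1a, Abcc4 and Slc38a3 had adjusted p-values of 0.065 to 0.21, and without stabilized bound replicate 2 of 0.064 to 0.12. Slc38a3 was also lost without each of the inputs (adjusted p = 0.066 to 0.084). Scaled on the 20 general EC genes, which sets their own change to about 0, the median of the 25 transporters was -0.28 and none was called higher and 1 lower, with Slc19a3 at 1.42 and Slc7a5 at 0.93. Under the length offset 4 were higher and none lower, and Slc19a3, Mfsd2a, Abcb1a and Tfrc were not called (adjusted p = 0.0852, 0.138, 0.455 and 0.208).

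Of 13 tight junction genes, Cldn5 and Ocln were higher and none was lower, with a median of 0.63. Cldn5, the main claudin of the BBB, was at 257 and 141 CPM in WT and 412 and 401 CPM in stabilized bound RNA, a log2 difference of 1.03 ± 0.27 (adjusted p = 0.0265). With the length offset this difference turned to -0.21 (adjusted p = 0.679). Ocln, which encodes occludin, was at 188 and 119 against 299 and 318 CPM (log2 1.01 ± 0.28, adjusted p = 0.0315). Tjp1, which encodes ZO1, was at 504 and 667 against 729 and 864 CPM and Esam at 233 and 102 against 280 and 238 CPM, and neither was called. The call of Cldn5 was lost without WT bound replicate 2 (log2 0.66) and without either stabilized bound library (adjusted p = 0.1 and 0.082), and that of Ocln without any of the 8 libraries but WT bound replicate 1. The length offset gave 3 of the 13 higher, not Ocln (adjusted p = 0.139), and scaled on general EC genes none was higher and 1 was lower.

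Of 9 genes of fenestrae, caveolae and transcytosis that were tested, 2 rose and 1 fell, with a median of 0.97. The 2 that rose were caveolar coat genes. Cavin1 was at 285 and 140 CPM in WT and 553 and 494 CPM in stabilized bound RNA (log2 1.30 ± 0.30, adjusted p = 0.0162), and Cavin2 at 153 and 74.6 against 243 and 225 CPM (log2 1.04 ± 0.30, adjusted p = 0.0372). Cav1, the caveolin they assemble with, overlapped at 118 and 99.8 against 124 and 103 CPM. Plvap, the fenestral diaphragm protein of leaky vessels, was at 3.69 and 9.15 CPM in WT and 3.53 and 31.5 CPM in stabilized bound RNA, so its values overlapped at a low level. Lrp2, an endocytic receptor abundant in kidney, fell from 113 and 16.4 to 5.02 and 1.45 CPM, and it is a member of the kidney list above, which was chosen after the values were seen. Without WT bound replicate 2, Cavin1 was at 0.87 and Cavin2 at 0.60 and neither was called. Cavin1 also lost its call without stabilized bound replicate 1 (adjusted p = 0.083), Cavin2 in every fit without 1 library but that without WT bound replicate 1, and Lrp2 without WT bound replicate 1 (log2 -2.37) or stabilized bound replicate 2 (adjusted p = 0.081). Scaled on general EC genes 0 of the 9 were higher and 1 lower.

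Of the 20 general EC genes 6 were called higher in stabilized bound RNA and none lower, with a median of 0.91. All 20 had positive log2 differences. Of the 6, Sox18, Egfl7, Eng, Robo4, Sox7 and Tie1 rose by log2 3.88, 1.5, 1.79, 1.55, 1.69 and 1.28. Cdh5, the junction protein VE-cadherin, was at 411 and 149 CPM in WT and 531 and 590 CPM in stabilized bound RNA (log2 1.0 ± 0.40, adjusted p = 0.104), and the VEGF receptor Flt1 at 2127 and 832 against 3498 and 3479 CPM (log2 1.24 ± 0.40, adjusted p = 0.0577). Both genes were lowest in WT bound replicate 2, where the EC sum was lowest and the neuronal and astrocyte sums highest among bound libraries. Pecam1 was at 478 and 197 against 544 and 599 CPM in bound RNA, but at 6.93 and 9.62 CPM in WT input and 132 and 133 CPM in stabilized input. It is 1 of the 20 genes and so enters the EC sums of the inputs and the scaling on the 20 genes. Scaling on the 20 genes moved the median of all genes from -0.10 to -1.08, and the counts of called genes from 833 to 184 higher (1.26%) and from 1523 to 4442 lower (30.5%). The counts of every gene list under this scaling are read against these shares. The calls of Egfl7 and Sox18 held without any 1 library. Those of Eng, Robo4, Sox7 and Tie1 did not hold without stabilized bound replicate 1 (adjusted p = 0.077, 0.07, 0.076 and 0.11), those of Robo4, Sox7 and Tie1 without stabilized bound replicate 2 (0.056, 0.12 and 0.069), and those of Sox7 and Tie1 without WT bound replicate 2 (log2 1.37 and 0.82). The length offset gave 4 of the 20 higher, and Egfl7, Eng and Sox7 were not called (adjusted p = 0.49, 0.051 and 0.0523).

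**Figure D3:**
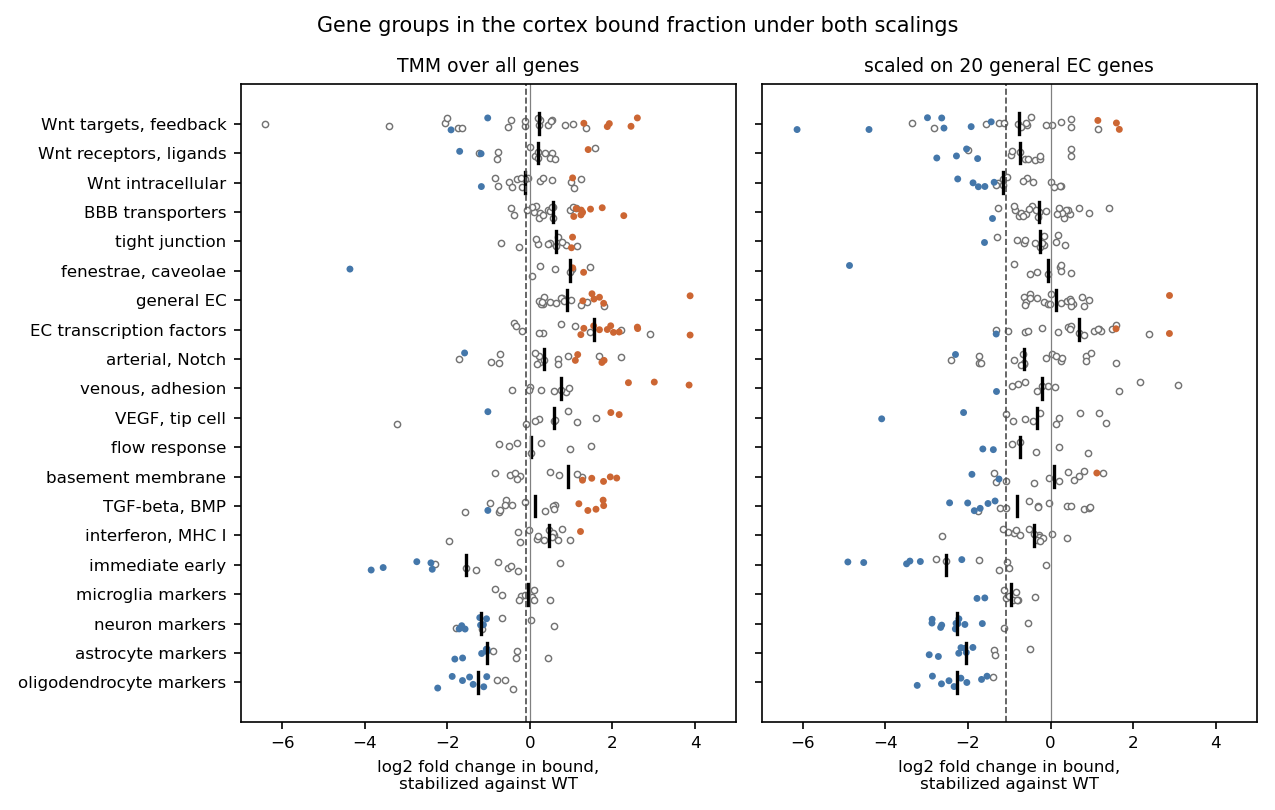
Log2 difference of stabilized against WT bound RNA for each gene of 20 lists under TMM scaling and under scaling on the 20 general EC genes; filled points were called, black bars are list medians and dashed lines the median of all genes tested. Under TMM scaling the EC transcription factors (median 1.54) and general EC genes (0.91) lie above the median of all genes (-0.10) and the neuronal, astrocyte and oligodendrocyte genes below it, and all lists move down together under the EC scaling.

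In the inputs the same genotypes differed at 340 genes called higher (2.33%) and 189 lower (1.3%), and the bound fraction differed from the input over both genotypes at 2105 genes higher (14.4%) and 1580 lower (10.8%). Among the 1635 bound-enriched genes, 304 were higher and 42 lower in stabilized bound RNA, with a median of 0.47 against 0.13 in the inputs. Scaled on general EC genes, 32 of them were higher and 165 lower, and the median turned to -0.42, against -1.08 over all genes. The enrichment averages both genotypes, so a gene can enter through a high level in stabilized bound RNA alone, and the higher calls are in part built into the choice. Of the 1635, 1584 had both WT bound libraries above both WT inputs, and of these 288 were higher and 42 lower, with a median of 0.45. Axin2, Cep162, Bcar3, Ppard, Gm10801 and Gm21962 were among those that did not. The 1584 still had to pass the enrichment over both genotypes and the coding TPM minimum, which stabilized libraries alone can meet. Plin4 stayed among them although it was below that minimum in WT bound RNA, at 5.94 and 2.61 coding TPM. The choice of genes therefore acts on the 1584 too, and their counts do not show how large its part is. Without stabilized bound replicate 1 or 2, the counts over the 1635 were 145 and 182 higher and 27 and 25 lower, without WT bound replicate 1 there were 537 higher, and without WT bound replicate 2 there were 89 lower. Over all genes 442 and 552 were higher without stabilized bound replicate 1 or 2. In the inputs, leaving out any 1 of the 4 input libraries left 57 to 132 genes higher and 16 to 78 lower, and without WT bound replicate 1 or 2 the inputs had 611 and 613 higher and 290 and 289 lower. Of the 304, 32 were also called higher in the inputs, and 136 exceeded their input difference by at least 2-fold. Over all genes, 381 were called higher and at least 2-fold above the input difference (2.61%) and 729 lower and at least 2-fold below it (5%). The difference between the bound and the input effect passed the test for 1 gene, Cep162 (0.00686%), with 2237 genes at an unadjusted p below 0.05. No gene was called higher in this contrast when any 1 of the 4 inputs was left out, under either EC scaling or with the length offset, so the call of Cep162 was lost there. Each input is an aliquot of the homogenate used for a pulldown, and with bound and input of the same genotype and number in 1 block, 66 genes were called higher and 176 lower. In that fit the bound difference exceeded the input difference by 2.11 for Axin2, 2.16 for Nkd1, 2.04 for Apcdd1, 1.78 for Lef1 and 3.46 for Cep162 (adjusted p = 0.031, 0.0208, 0.0216, 0.043 and 0.00245), and Tcf7 was not called (2.30, adjusted p = 0.0842). For a gene used by ECs alone the input also carries the EC effect, so that this contrast takes away a real difference together with a difference in preparation.

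Of the bound-enriched genes, 561 were also higher in the sorted ECs of WT cerebellum than in its other cells, a comparison that called 855 of 14062 genes higher (6.08%). Of these 561, 149 were higher (26.6%) and 4 lower (0.713%) in stabilized cortex bound RNA, with a median of 0.67 against 0.12 in the inputs. Over all bound-enriched genes 18.6% were higher and 2.57% lower. The 561 are part of the bound-enriched genes, so the choice of those genes acts on them too. Scaled on the general EC genes their median was -0.22, with 13 called higher and 36 lower. Of the 41 bound-enriched genes that were lower in sorted ECs, 3 were higher and 4 lower. Both stabilized values exceeded both WT values at 3683 of the 14572 genes (25.3%) and lay below both at 4596 (31.5%).

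**Figure D4:**
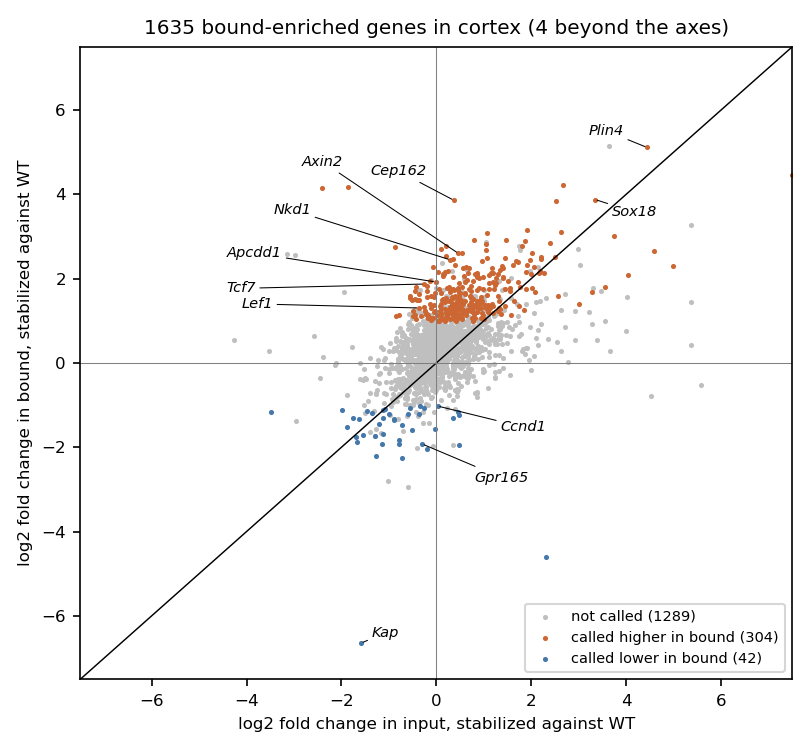
Log2 difference of stabilized against WT in input (horizontal) and bound RNA (vertical) for 1635 bound-enriched genes, of which 304 were called higher (orange), 42 lower (blue) and 1289 not called (grey); 4 genes lie beyond the axes, and the line marks equal differences. Axin2, Nkd1, Apcdd1, Tcf7, Lef1 and Cep162 lie high above the line, while Sox18 and Plin4 lie near the line.

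The bound-enriched genes with the largest rise included Plin4, Map3k6, Sox18, Cep162, Gstm7 and Smtn. Of those named here, Cep162, Gm21962 and Gm10801 are bound-enriched through the stabilized libraries, so their place in this order follows in part from the choice of genes. The same holds for Plin4, Map3k6, Smtn, Lrg1, Fhl3 and Gm10719. They reached 10 coding TPM in both replicates only in stabilized bound RNA, with Plin4 at 5.94 and 2.61 coding TPM in WT. Plin4, which coats lipid droplets, was at 26.8 and 11.6 CPM in WT and 572 and 755 CPM in stabilized bound RNA, a log2 difference of 5.12 ± 0.43 (adjusted p = 0.000588). Its inputs were apart by nearly as much, at 0.636 and 1.31 against 18.9 and 24.2 CPM (log2 4.44). Sox18, a SOX factor of vascular development, was at 11.6 and 12.2 CPM in WT and 164 and 187 CPM in stabilized bound RNA (log2 3.88 ± 0.28, adjusted p = 0.00035), again with a higher input (log2 3.35). Its bound difference was 2.44 with the length offset and 2.88 when scaled on general EC genes. Cep162, a centriolar protein gene, was at 19.1 and 20.9 CPM in WT and 226 and 357 CPM in stabilized bound RNA (log2 3.86 ± 0.26, adjusted p = 0.000306), while its inputs stayed at 24.5 and 24.1 against 30.0 and 32.8 CPM. Map3k6, a stress kinase, was at 8.92 and 1.72 against 102 and 94.6 CPM (log2 4.23 ± 0.61), Smtn, which encodes the actin-binding protein smoothelin, at 31.6 and 23.7 against 234 and 233 CPM (log2 3.08 ± 0.31), and Gstm7, a glutathione transferase, at 8.20 and 12.5 against 92.4 and 94.6 CPM (log2 3.17 ± 0.40). All of these held without any 1 library. Lrg1, a secreted glycoprotein of activated venous ECs, rose from 7.75 and 2.68 to 40.2 and 109 CPM, and Fhl3, a LIM domain gene, from 3.42 and 0.619 to 18.8 and 16.2 CPM. Lrg1 was not called without stabilized bound replicate 2 (adjusted p = 0.11) and Fhl3 not without either stabilized bound library (adjusted p = 0.12 and 0.086). The remaining members were the predicted genes Gm21962, Gm2000, Gm10719 and Gm10801, whose reads may be shared with near-identical copies and which are uncertain. Gm2000 was at 3.87 and 3.10 against 76.6 and 76.8 CPM, and the other 3 were under 2 CPM in both WT libraries and at 10.6 to 67.5 CPM in the stabilized ones. Gm10719 and Gm10801 were not called without either stabilized bound library (adjusted p = 0.052 to 0.21), nor were Gm10719 and Fhl3 with the length offset (adjusted p = 0.0531 and 0.0758).

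Scaled on general EC genes, 31 bound-enriched genes were called higher in both scalings. Of the 31, 12 were called higher in the inputs too, where 2.33% of all genes were. With the length offset 28 of the 31 and 167 of the 304 were also called. In stabilized choroid plexus bound RNA 13 of the 31 were higher, beside 78 of the 304, 211 of the 1635 and 3.13% of all genes. With the length offset, 1109 genes were higher (7.61%) and 1208 lower (8.29%) among all genes. The 31 included Axin2, Nkd1, Apcdd1, Sox18, Ppard and Fn1. Axin2, Ppard, Bcar3, Cep162 and Gm21962 among them did not have both WT bound libraries above both WT inputs. Plin4, Map3k6, Smtn, Atp10a, Xdh and Col18a1 among them reached 10 coding TPM in both replicates only in stabilized bound RNA. The place of all these genes among the 31 thus follows in part from the choice of genes. Scaled on general EC genes, 26 of the 1584 genes with both WT bound libraries above both WT inputs were higher, against 32 of all 1635. The 1584, on which the choice of genes acts too, had 165 lower and a median of -0.44. Xdh, which encodes xanthine dehydrogenase, was at 41.9 and 25.9 against 225 and 279 CPM (log2 2.90), with an input difference of 1.88 that was called too (adjusted p = 0.0155), and Ccdc141 at 146 and 77.1 against 821 and 716 CPM (log2 2.79) with an input difference of 0.20. Prom1, the membrane protein CD133, was at 180 and 85.7 against 579 and 619 CPM (log2 2.17) with an input difference of 0.18. Bcar3, an adaptor of integrin signaling, was at 10.9 and 9.43 against 70.7 and 62.7 CPM (log2 2.71) with an input difference of 0.09. Col18a1, the collagen that yields endostatin, was at 18.6 and 6.74 against 126 and 65.8 CPM (log2 2.92), and it and Tns2 were not called with the length offset (adjusted p = 0.0631 and 0.148). Hspb1, a small heat shock protein, Ucp2, a mitochondrial carrier, Gng5, a G protein subunit, and Tns2, a focal adhesion protein, rose by log2 2.52, 2.46, 2.85 and 2.12, with input differences of 2.21, 1.98, 2.40 and 2.0. The 9 genes from Xdh to Tns2 were chosen for mention after their values were seen, from the 31.

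The bound-enriched genes with the largest fall included genes known from kidney and from immune cells. Kap, the androgen-regulated kidney protein, was at 417 and 51.2 CPM in WT and 1.30 and 3.15 CPM in stabilized bound RNA, and Cyp2j5, a kidney cytochrome, at 37.5 and 9.02 against 1.12 and 0.789 CPM. Other kidney genes were high in the same WT library, with Slc34a1, the phosphate transporter of the proximal tubule, at 52.2 and 2.68 CPM in WT and 0.372 and 3.55 CPM in stabilized bound RNA, and Umod, made by the loop of Henle, at 35.1 and 7.71 against 0 and 1.05 CPM. The part of kidney RNA in these differences was not tested. Cd53, a leukocyte tetraspanin, was at 238 and 176 CPM in WT and 48.9 and 60.2 CPM in stabilized bound RNA (log2 -1.92 ± 0.26, adjusted p = 0.00177), and Slc15a3, a lysosomal transporter of myeloid cells, at 77.5 and 41.8 against 15.1 and 10.6 CPM (log2 -2.22 ± 0.40, adjusted p = 0.00611). Cd180 and Btk, both of immune cells, fell from 43.6 and 56.8 to 16.2 and 11.4 CPM and from 30.1 and 28.2 to 8.37 and 8.15 CPM. Rnaset2a, a ribonuclease, fell from 131 and 82.1 to 22.3 and 29.3 CPM (log2 -2.04 ± 0.31), Rab32, a vesicle GTPase, from 18.7 and 18 to 3.72 and 3.94 CPM, Gpr165 from 180 and 84.0 to 31.6 and 37.9 CPM, Prcp, a lysosomal peptidase, from 102 and 26.6 to 21.0 and 12.9 CPM, and I830077J02Rik from 19.0 and 22.9 to 5.95 and 4.99 CPM. The predicted gene Gm20388 was at 74.0 and 58.1 CPM in WT and 0 and 2.50 CPM in stabilized bound RNA and at 0 in both stabilized inputs. Under TMM scaling the general microglia markers did not fall as a list, with none of 10 called and a median of -0.04. Scaled on general EC genes 0 of the 10 were higher and 2 lower, with a median of -0.96 against -1.08 over all genes. Calls that held without any 1 library were those of Cd53, Slc15a3, Rnaset2a and Gm20388. Kap was not called without stabilized bound replicate 1 (adjusted p = 0.064), Cyp2j5 without WT bound replicate 1 (0.054), and Cd180 without stabilized bound replicate 2 (0.076), and Btk, Rab32, Gpr165, Prcp and I830077J02Rik had a largest adjusted p of 0.11, 0.092, 0.11, 0.24 and 0.14 without 1 library. Rab32, I830077J02Rik, Gpr165, Cd180 and Btk were not called with the length offset either (adjusted p = 0.0571, 0.0805, 0.067, 0.0908 and 0.126).

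Of 21 EC transcription factors, 11 were higher and none was lower, with a median of 1.54 in bound and 0.64 in input RNA. Beside Sox18, Sox7, Tcf7 and Lef1 they included forkhead and nuclear receptor genes. Ppard, a nuclear receptor of lipid metabolism, was at 17.7 and 20.0 CPM in WT and 108 and 121 CPM in stabilized bound RNA (log2 2.60 ± 0.27, adjusted p = 0.00089). Foxf2, a forkhead factor of CNS vessels, was at 15.2 and 25.9 against 83.7 and 101 CPM (log2 2.16 ± 0.35) and Foxc1 at 41.1 and 23.2 against 121 and 140 CPM (log2 2.02 ± 0.31). Gata2, a GATA factor of ECs, was at 96.6 and 35 against 277 and 234 CPM (log2 1.96), and Epas1, the hypoxia-inducible factor HIF2A, at 1907 and 909 against 3403 and 3224 CPM (log2 1.23). Foxl2, a forkhead factor, rose from 2.97 and 5.92 to 32.7 and 21.9 CPM. Foxq1 was at 56.8 and 37.8 against 95.8 and 104 CPM and missed the threshold (log2 1.08 ± 0.41, adjusted p = 0.0916). In the inputs Sox18 and Foxf2 were called higher too (log2 3.35 and 2.18). Ppard, Foxf2 and Foxc1 held without any 1 library. Gata2 was lost without stabilized bound replicate 1 (adjusted p = 0.082), and Epas1 and Foxl2 were lost in at least 5 of the 8 fits without 1 library (largest adjusted p 0.1 and 0.21). Under the scaling on general EC genes 2 of the 21 were higher and 1 lower, with a median of 0.68. The length offset gave 7 higher, and Foxf2, Foxc1 and Foxl2 were not called (adjusted p = 0.186, 0.074 and 0.172).

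Of 19 arterial and Notch pathway genes, 4 were higher and 1 was lower. Notch4, the Notch receptor of ECs, was at 67.5 and 34.7 CPM in WT and 202 and 153 CPM in stabilized bound RNA (log2 1.80 ± 0.31, adjusted p = 0.00458). The ligand Jag2 was at 57.3 and 37.0 against 165 and 151 CPM (log2 1.74 ± 0.25, adjusted p = 0.00245), the receptor Notch1 at 149 and 95.7 against 266 and 280 CPM (log2 1.16) and the ligand Jag1 at 53.2 and 30.8 against 89.7 and 90.3 CPM (log2 1.10). Fbln5, an elastic fiber protein, fell from 133 and 47.5 to 35.9 and 24.6 CPM. Sox17, an arterial SOX factor, was at 34.9 and 6.74 against 102 and 88.2 CPM and missed the threshold (log2 2.20 ± 0.80, adjusted p = 0.0806), while Efnb2 was at 55.8 and 69.2 against 52.6 and 87.5 CPM. Without WT bound replicate 2, Notch1 was at 0.87 and Jag1 at 0.75, and Jag1 and Fbln5 were each lost in 5 of the 8 fits without 1 library (largest adjusted p 0.14 and 0.29). Under the scaling on general EC genes 0 of the 19 were higher and 1 lower, with a median of -0.64. Under the length offset 1 was higher and 1 lower, and Jag2, Notch1 and Jag1 were not called (adjusted p = 0.534, 0.0936 and 0.226).

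Of 11 venous and leukocyte adhesion genes 3 were higher and none lower. Ephb4, the venous ephrin receptor, was at 39.0 and 13.3 CPM in WT and 165 and 107 CPM in stabilized bound RNA (log2 2.39 ± 0.46, adjusted p = 0.00747). Lcn2, a secreted protein induced in inflammation, was at 21.3 and 10.5 against 51.0 and 204 CPM, with the stabilized replicates far apart. Vwf, stored in EC granules, passed the adjusted p with less than a 2-fold change (log2 0.96 ± 0.28, adjusted p = 0.0369). Of 12 angiogenic and tip cell genes 2 were higher and 1 lower. Flt4, the VEGF-C receptor, was at 47.5 and 22.7 against 167 and 147 CPM (log2 2.16 ± 0.34, adjusted p = 0.00333), also called in the inputs (log2 1.89). Pdgfb, which recruits pericytes and whose promoter drives the Cre, was at 87.8 and 36.9 against 247 and 237 CPM (log2 1.96 ± 0.37, adjusted p = 0.00713). Kdr, the main VEGF receptor, overlapped at 401 and 231 against 350 and 388 CPM, and Apln fell from 16.8 and 27.6 to 11.9 and 10.1 CPM, a call lost without 7 of the 8 libraries in turn (largest adjusted p 0.16). Ephb4 was lost without stabilized bound replicate 1 (0.056), and Lcn2 without WT bound replicate 2 (0.063) or stabilized bound replicate 2 (0.22). None of 7 flow-responsive genes was called, with Klf2 at 352 and 53.1 against 757 and 366 CPM and Klf4 at 571 and 126 against 513 and 331 CPM, and none of 8 cell cycle genes tested was called (median 0.06). Scaled on general EC genes none of the venous or angiogenic genes was higher and 1 and 2 were lower. The length offset gave 6 venous and 2 angiogenic genes higher and none lower, without Apln (adjusted p = 0.139).

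Of 14 matrix genes of the vascular basement membrane, 5 were higher and none was lower. Fn1, which encodes fibronectin, was at 592 and 305 CPM in WT and 1738 and 1721 CPM in stabilized bound RNA (log2 1.95 ± 0.31, adjusted p = 0.00336). Hspg2, which encodes perlecan, was at 61.6 and 59.8 against 223 and 195 CPM (log2 1.78 ± 0.19, adjusted p = 0.000924) and Lama5, the laminin alpha 5 chain, at 22.2 and 12.0 against 80.0 and 66.8 CPM (log2 2.10 ± 0.40). Col4a2, a collagen IV chain, was at 290 and 146 against 645 and 587 CPM (log2 1.5) and its partner Col4a1 at 527 and 166 against 864 and 810 CPM (log2 1.27 ± 0.46, adjusted p = 0.0794). Igfbp7, a matrix-bound IGF-binding protein, rose by log2 1.27. Sparc, an abundant matrix protein, was at 3227 and 2067 against 1838 and 1965 CPM and was not called (log2 -0.48 ± 0.34). Of 8 IGF system genes 2 rose and 2 fell. Igfbp3, an IGF-binding protein, was at 30.2 and 32.6 against 80.9 and 98.8 CPM (log2 1.52 ± 0.22, adjusted p = 0.00229), whereas Igf1 fell from 12.3 and 19.8 to 2.42 and 2.89 CPM (log2 -2.58 ± 0.41, adjusted p = 0.00333) and Igfbp5 from 135 and 249 to 74.6 and 98.6 CPM (log2 -1.15), both of them not bound-enriched. Col4a2 was lost without stabilized bound replicate 1 (0.057), Igfbp7 without WT bound replicate 2 (log2 0.93) or either stabilized bound library (adjusted p = 0.054 and 0.055), and Igfbp5 without the same 3 libraries (largest adjusted p 0.15). The scaling on general EC genes gave 1 matrix gene higher and 2 lower, and 0 IGF genes higher and 3 lower. Under the length offset 3 matrix genes were higher, and Col4a2, Igfbp7, Igfbp3 and Igf1 were not called (adjusted p = 0.118, 0.0919, 0.151 and 0.209).

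In the TGF-beta and BMP pathway 5 of 18 genes were higher and 1 lower. The co-receptor Eng, endoglin, was at 220 and 133 CPM in WT and 645 and 573 CPM in stabilized bound RNA (log2 1.79 ± 0.41, adjusted p = 0.0155), and the receptor Acvrl1, ALK1, at 141 and 63.9 against 296 and 327 CPM (log2 1.6 ± 0.39, adjusted p = 0.0189). The inhibitory SMAD gene Smad7 was at 50.9 and 37.7 against 127 and 108 CPM (log2 1.40 ± 0.23, adjusted p = 0.00386). Smad6, its paralog, was at 19.5 and 9.50 against 57.8 and 41.4 CPM (log2 1.77 ± 0.55, adjusted p = 0.048), and with the length offset its difference turned to -1.31 (adjusted p = 0.555). Ltbp4, which anchors latent TGF-beta, rose by log2 1.19, and Smad5, a transducer of BMP signals, fell from 118 and 120 to 61.6 and 55.9 CPM (log2 -1.02 ± 0.19). The receptors Bmpr2 and Tgfbr2 were not called (log2 -0.13 and 0.60). Smad7 held without any 1 library. Eng and Acvrl1 were lost without stabilized bound replicate 1 (adjusted p = 0.077 and 0.07) and Acvrl1 without replicate 2 (0.077), Smad5 without stabilized bound replicate 2 (log2 -0.95), and Smad6 and Ltbp4 in at least 5 of the 8 fits (largest adjusted p 0.22 and 0.16). Under the scaling on general EC genes 0 of the 18 were higher and 6 lower, with a median of -0.80. Under the length offset 2 were higher and 3 lower, and Eng, Acvrl1 and Ltbp4 were not called (adjusted p = 0.051, 0.0573 and 0.159). Of 15 MHC class I and interferon-induced genes 1, Ly6e, was called higher, near the 5.72% over all genes, from 203 and 107 to 387 and 337 CPM (log2 1.22 ± 0.28), and H2-D1, a class I heavy chain, was at 152 and 125 against 290 and 252 CPM (log2 0.97 ± 0.19, adjusted p = 0.00811). Ly6e was not called when scaled on general EC genes (log2 0.39, adjusted p = 0.429) or without WT bound replicate 2 (log2 0.83) or stabilized bound replicate 1 (adjusted p = 0.085).

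Immediate early genes turn on within minutes of stimulation and also during tissue handling. Of 13, 5 were lower and none higher in bound RNA and 2 were lower in input, with medians of -1.56 in bound and -1.46 in input RNA. Egr1 was at 374 and 305 CPM in WT and 12.3 and 44.8 CPM in stabilized bound RNA, and at 439 and 431 against 33.3 and 161 CPM in the inputs. Egr2, Fos, Fosb and Nr4a1 fell by 3.84, 2.74, 2.40 and 2.36 on the log2 scale in bound RNA, and Egr2 and Fosb were also called in the inputs (log2 -3.53 and -1.99). Jun, of the same group, was at 303 and 89.3 against 160 and 159 CPM. The length offset left 4 lower, without Fosb (adjusted p = 0.319). Egr2, Fos and Fosb held without any 1 library, while Egr1 was lost without stabilized bound replicate 1 (adjusted p = 0.068) and Nr4a1 without WT bound replicate 1 or either stabilized bound library (0.085, 0.09 and 0.15).

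Of 12 neuronal markers 7 were lower, of 10 astrocyte markers 6 and of 10 oligodendrocyte markers 7, with bound medians of -1.18, -1.04 and -1.25 and input medians of -0.33, -0.03 and 0.06. The length offset left 2, 1 and 6 of them lower. Slc1a2, the glutamate transporter of astrocytes, was at 3127 and 5372 CPM in WT and 900 and 1510 CPM in stabilized bound RNA (log2 -1.82 ± 0.36, adjusted p = 0.00831). Slc17a7, the vesicular glutamate transporter, was at 288 and 315 against 95.6 and 96.3 CPM (log2 -1.65 ± 0.28). Hbb-bs, a hemoglobin chain, fell from 241 and 336 to 44.1 and 37.6 CPM (log2 -2.82 ± 0.29). None of 11 mural cell, 5 leukocyte or 9 choroid plexus epithelium genes tested was called, with medians of -0.36, 0.57 and -0.00. At an unadjusted p below 0.05 there were 0 mural, 2 leukocyte, 1 choroid plexus epithelium, 2 microglia, 1 flow-responsive and 0 cell cycle genes, and DESeq2 called 1 of these lists' genes, a leukocyte gene. Where the text gives no call in 1 direction, that direction held 1 tight junction and 1 MHC or interferon gene at an unadjusted p below 0.05 and none of the transporters, general EC, EC transcription factor, venous, matrix, immediate early, neuronal, astrocyte or oligodendrocyte genes, and DESeq2 called 0 there. Of 8 fibroblast genes Col1a2 was higher and Pdgfra, which also marks oligodendrocyte precursors, lower (log2 1.33 and -1.04). The 8 summed to 309 and 412 CPM in WT and 422 and 346 CPM in stabilized bound RNA. In the inputs they summed to 607 and 655 CPM in WT and 1729 and 1483 CPM in stabilized cortex, with 2 called higher and 0 lower. The call of Col1a2 was lost without stabilized bound replicate 2 (adjusted p = 0.074) and that of Pdgfra without stabilized bound replicate 1 (0.06) and with the length offset (0.541).

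The same genotypes in choroid plexus gave a second setting, with vessels that lack a BBB in WT. The WT cortex libraries differ in RNA makeup from all other RiboTag libraries, as given above, and all 8 choroid plexus libraries held both Xist and Y-linked counts, so makeup and sex cannot be told apart from the tissue difference. In choroid plexus bound RNA 473 of 15135 genes were higher (3.13%) and 351 lower (2.32%), and the cortex effect exceeded the choroid plexus effect at 742 genes (4.9%) and lay below it at 875 (5.78%). With the 8 bound libraries only, these counts were 174 and 144. Nkd1 and Apcdd1 rose by log2 6.38 and 6.69 in choroid plexus, with differences between cortex and choroid plexus of -3.89 and -4.72 (adjusted p = 0.0012 and 0.0014). Notum had 0 counts in both WT choroid plexus bound libraries and 47 and 64 counts in the stabilized ones, and Slc7a3 had 0 against 10 and 53 counts, so no fold change is given for either there. Axin2 rose by 1.05 in choroid plexus and by 2.60 in cortex, a difference of 1.58 (adjusted p = 0.01). Lef1 and Tcf7 did not differ between the tissues past the threshold (log2 -0.73 and -1.20, adjusted p = 0.28 and 0.25). Of the 25 BBB transporters 15 were called higher in choroid plexus, with a median of 2.21 against 0.56 in cortex, and 13 had a smaller and 2 a larger difference in cortex. Mfsd2a rose by 6.03 in choroid plexus and 1.47 in cortex, and Slc7a5 by 5.49 and 1.75. Lrp8 and Slc38a3 had the larger difference in cortex, where they rose by 1.24 and 1.06 against -0.09 and -0.64 in choroid plexus.

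**Figure D5:**
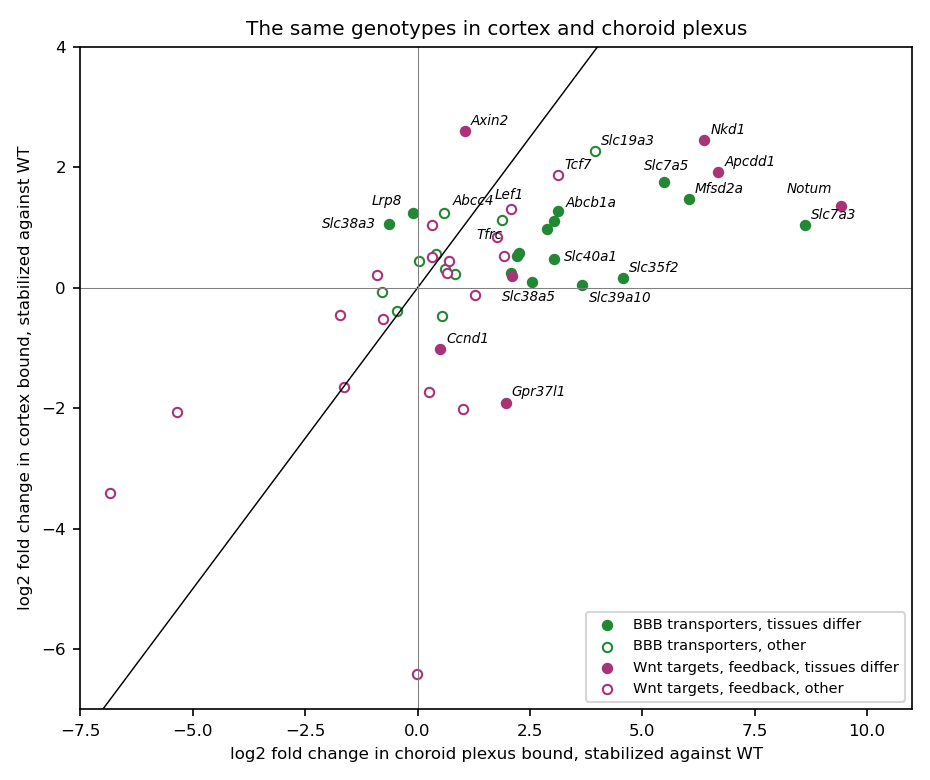
Log2 difference of stabilized against WT bound RNA in choroid plexus (horizontal) and cortex (vertical) for 25 BBB transporters (green) and 25 Wnt target and feedback genes (purple); filled points are genes whose difference was called different between the tissues, and the line marks equal differences. Most filled points lie right of the line, such as Mfsd2a at 6.03 in choroid plexus and 1.47 in cortex, and Axin2, Lrp8 and Slc38a3 lie left of it. The positions of Notum and Slc7a3, with 0 counts in WT choroid plexus, are fitted values whose size is not readable.

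In ECs sorted from cerebellum, another tissue with a BBB, 1 gene was higher (0.00696%) and 44 were lower (0.306%) in stabilized against WT mice among 14377 tested. The 44 fell to 0 with the 4 GFP-positive libraries only. Of the 304 bound-enriched genes called higher in cortex, 101 had a positive difference in cerebellum ECs, where 38.2% of all 13681 genes tested in both did. The 1 gene was Nkd1, with a log2 difference of 2.57 ± 0.36 (adjusted p = 0.04997), beside 2.45 in cortex bound RNA. Axin2 had a difference of 1.37 ± 0.59 in cerebellum and was not called (adjusted p = 0.565), Apcdd1 one of 0.69 and Lef1 one of -0.07. Whether these effects differ between cerebellum and cortex was not tested.

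The last lists were built from WT libraries alone. The BBB list holds 58 genes that were at least 2-fold higher in sorted cerebellum ECs than in the sorted ECs of both pituitary lobes and than in the other cerebellum cells. Of them, 14 were higher and 2 lower in stabilized cortex bound RNA, with a median of 0.55. Beside transporters named above, those higher included Degs2, Net1, Bsg, Golim4 and Ccdc141, with log2 differences of 2.08, 1.24, 1.37, 2.07 and 2.79. Of the 52 tested genes of the pituitary list, higher in the ECs of both lobes than in cerebellum ECs and than in the other cells of the same lobe, 1 was higher and 7 were lower, with a median of -0.25. The 1 was Rgcc, a cell cycle regulator (log2 1.08), and of the 7, Plpp3, a lipid phosphatase, was at 137 and 216 CPM in WT and 40.7 and 44.3 CPM in stabilized bound RNA, while Slc44a2 was the only bound-enriched one. Scaled on general EC genes 2 of the BBB list were higher and 6 lower, and 0 of the pituitary list higher and 16 lower. Over all genes this scaling called 1.26% higher and 30.5% lower. The 14 and 7 are read against 5.72% higher and 10.5% lower over all genes. The named members of both lists were chosen after their values were seen.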

How the data were processed

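Anti-HA immunoprecipitated (bound) and homogenate (input) RNA was sequenced by the authors for 75 cycles, single-end. Per the study's methods, the authors quantified transcripts with Salmon 0.10.2 against Ensembl transcripts of GRCm38. The deposited tables hold the authors' estimated counts and TPM per transcript, and the authors corrected these for sequence, GC and position bias, which can move genes with few reads. Here both were summed per gene, and TPM was also rescaled to nuclear protein-coding genes (coding TPM). Counts were rounded and restricted to 21872 nuclear protein-coding genes, since non-coding RNA took unequal shares, and tested with edgeR 4.0.16 in R 4.3.3 (quasi-likelihood test, TMM factors, filterByExpr, 1 coefficient per group, 8 cortex libraries in 1 fit with 4 residual degrees of freedom). The study's own test was EBSeq, which was not used here. Genes were called at a Benjamini-Hochberg adjusted p below 0.05 and at least a 2-fold change, and all p-values are two-sided. Tissues were compared over 16 RiboTag libraries, cerebellum over 8 sorted libraries, and the BBB and pituitary lists came from 12 WT sorted libraries with at least 10 coding TPM. Tables were scanned in Python 3.11.15.

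Genes named by rule were the 12 rising and 12 falling bound-enriched genes with the largest fold change, called, not overlapping between genotypes and at 10 coding TPM or more in both replicates of the higher group. Further named genes were all members of the Wnt lists, the called members of the other lists and their most abundant members. Genes called in the input are given by counts and examples. The members and lists were chosen with earlier results of these data known. On simulated counts with 14230 genes the bound comparison called 8.51% of genes changed by 1 on the log2 scale, 43.5% at 1.5, 68% at 2 and 83.7% at 3, with 5 false calls, so changes near 2-fold were often missed. Replicates were checked for duplicate libraries and none was found. The alternatives were DESeq2 1.42.0, other scalings, filters, gene sets and libraries, a replicate block, a gene-length offset and leaving out each library in turn.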

Additional observations from a re-analysis of the deposited data

Results flagged for a closer look

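The difference between stabilized and WT bound RNA was itself different between cortex and choroid plexus at 742 genes with the higher value in cortex and 875 with the lower, by a test of the interaction in the 16 RiboTag libraries. With the 8 bound libraries only, the counts were 174 and 144. All values here are log2 differences, cortex minus choroid plexus, each past an adjusted p of 0.05. Among Wnt target and feedback genes they were 1.58 for Axin2, -3.89 for Nkd1, -4.72 for Apcdd1, -1.88 for Tnfrsf19, -1.5 for Ccnd1 and -3.86 for Gpr37l1. Among receptors and co-receptors they were 1.68 for Fzd7, 1.40 for Lrp5, -1.88 for Tspan12 and -1.47 for Reck, and among intracellular components -1.45 for Gsk3a, 1.02 for Dvl1 and -1.26 for Ctnnbip1.

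Among BBB transporters, the carriers Slc2a1, Mfsd2a, Slc7a5 and Slc3a2 had values of -1.88, -4.52, -3.70 and -1.80. The organic anion and amino acid transporters Slco1a4, Slc38a5 and Slc7a1 had values of -1.64, -2.40 and -1.86, and Slc35f2, the iron exporter Slc40a1 and the zinc transporter Slc39a10 had values of -4.39, -2.51 and -3.59. The efflux pumps Abcb1a and Abcg2 had values of -1.80 and -1.65. Slc38a3 and Lrp8 had positive values of 1.75 and 1.37. The fitted values of Notum (-8.03) and Slc7a3 (-7.58) rest on WT choroid plexus libraries with 0 counts and depend on the prior count of the fit, so their size is not readable. The WT cortex libraries differ in RNA makeup from the other RiboTag libraries, and the cortex groups differ in Xist and Y-linked counts, so tissue, makeup and sex cannot be told apart in these values.

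Cep162 was the 1 gene called for a bound difference above its input difference in the fit without a block (log2 3.49, edgeR, adjusted p = 0.039). Both its stabilized bound values were above both WT values. This call was lost under both EC scalings, with the length offset and when any 1 of the inputs was left out, and with bound and input of a preparation in 1 block 66 genes were higher. Outside the main measurement, non-coding RNA took at least 69.4% of TPM in every stabilized cortex library, above the 23.7 to 33.2% of the WT ones.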

How the results depend on the processing

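Calls in bound RNA depended on the scaling and on single libraries. Genes higher in stabilized bound RNA numbered 833, and 1366 with DESeq2, 317 with scaling on bound-enriched genes, 184 with scaling on 20 general EC genes, 542 with only the 4 bound libraries and 442 (without stabilized bound replicate 1) to 1237 (without WT bound replicate 2) without 1 library. Genes lower numbered 1523, and 3835, 4442 and 802 under the last 3 settings and 1048 to 1840 without 1 library. The bound-enriched genes among them numbered 304 higher (100 and 32 under these scalings, 145 without stabilized bound replicate 1 to 537 without WT bound replicate 1) and 42 lower (144 and 165, 24 with only 4 libraries, 25 without stabilized bound replicate 2 to 89 without WT bound replicate 2). The medians of all genes moved to -0.72 and -1.08 under the 2 scalings. The input gave 340 higher (557, 126, 45, 839 and 57 to 613) and 189 lower (303, 54, 9, 400 and 16 to 290) under DESeq2, the 2 scalings, only 4 libraries and without 1 library, and 423 lower with the length offset. The bound minus input difference called 1 gene higher and 0 lower. It called 172 and 279 with DESeq2, 50 and 172 without a filter, 3 and 1 with all biotypes, 39 and 37 in 16 libraries, 66 and 176 with a block that pairs bound and input of a preparation, 9 and 29 at a mean of 100 counts or more, and 0 to 227 and 0 to 370 without 1 library. It called 0 higher under both EC scalings and with the length offset, and 1 lower under the 20-gene scaling. Bound-enriched genes numbered 1635, 523 under their own scaling and 1535 to 1712 without 1 library. Enrichment under the 20-gene scaling gave no value. The tissue difference fell from 742 higher and 875 lower to 174 and 144 with the 8 bound libraries only, and the 44 genes lower in cerebellum to 0 with 4 libraries only. Leaving out libraries was not run for choroid plexus and cerebellum. The difference turned to -0.21 for Cldn5 and -1.31 for Smad6 with the length offset. With the replicate number as a block, 827 genes were higher and 1546 lower. Same-numbered libraries correlated at -0.05 to 0.25, with 1 of 6 pairs over 0.1, so the numbers were not taken to pair the genotypes, and bound with input of 1 preparation correlated at 0.09 in WT and 0.25 in stabilized cortex. Of the named calls, 99 were followed through each alternative, and 40 of these held without any 1 library. Of the 99, 55 were lost under the 20-gene scaling, 42 with the length offset, 6 with DESeq2 and 4 with the block. Other named calls, such as those of Slc1a2, Slc17a7, Hbb-bs, Xdh and Ccdc141, were not followed through leaving out 1 library. The scaling on 20 genes, the autosomal genes, the mean count minimum and the comparisons with sorted cells and with input folds were chosen after seeing the data. The causes of these changes were not tested. Under the calling rule used here, with 2 replicates a group and a 2-fold minimum, changes near 2-fold were often not called.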

Other observations

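Of the 340 genes called higher and 189 called lower in stabilized input, 153 and 165 were also called in the same direction in bound RNA. Of the bound-enriched genes 49 were higher and 20 lower in the inputs, 32 and 13 of them with the same call in bound RNA. The genes named here were chosen from these after their values were seen. Mgp, which encodes matrix Gla protein, was at 28.8 and 26.7 CPM in WT and 102 and 151 CPM in stabilized bound RNA (log2 2.19 ± 0.32, SE, adjusted p = 0.00239), and its input difference was 2.18. Tsc22d3, a gene induced by glucocorticoids, was at 113 and 61.9 against 220 and 224 CPM in bound RNA (log2 1.35 ± 0.26, adjusted p = 0.008) and at 29.9 and 29.9 against 103 and 99.4 CPM in the inputs (log2 1.75). Nfe2l2, the oxidative stress factor NRF2, and Ace, angiotensin-converting enzyme, had bound differences of 1.14 and 1.23 and input differences of 1.58 and 1.30. In bound RNA Tsc22d3 was not called without WT bound replicate 2 (log2 0.97), nor Nfe2l2 and Ace without stabilized bound replicate 2 (adjusted p = 0.053 and 0.1).

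Among genes lower in both fractions, Cd33, a sialic acid receptor of myeloid cells, was at 348 and 258 CPM in WT and 87.2 and 92.4 CPM in stabilized bound RNA (log2 -1.76 ± 0.21, adjusted p = 0.00119), and at 13.2 and 11.5 against 3.51 and 4.05 CPM in the inputs. Fcrls, a microglial Fc receptor-like gene, was at 762 and 557 against 197 and 207 CPM in bound RNA (log2 -1.71 ± 0.30, adjusted p = 0.00515). Ddit4, a stress-induced inhibitor of mTOR signaling, was at 231 and 260 against 76.5 and 72.3 CPM (log2 -1.72 ± 0.18, adjusted p = 0.000924). In all of these genes both stabilized values lay on the same side of both WT values in either fraction, and the bound calls of Mgp, Cd33, Fcrls and Ddit4 held without any 1 library. With the length offset Cd33 and Fcrls were not called (log2 -0.62 and -1.25, adjusted p = 0.125 and 0.171), nor were Tsc22d3, Nfe2l2 and Ace (adjusted p = 0.0989, 0.597 and 0.189).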
